A study of Mus musculus with 76 samples.

Results

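The comparison of MAP3K11 with HER2 tumours covers 12 of the 76 arrays of the series, 6 from each group, and was made across genes. The arrays were selected by the introduced gene named in their labels. All tumours came from C57BL/6 mice in a directed complementation model. Its starting tumour depends on a doxycycline-inducible HER2 carrying the V659E mutation, and that driver was switched off in every group by taking doxycycline away. In 1 group the kinase MAP3K11 (MLK3) was then introduced, and these tumours are labelled with cachexia, the wasting of body tissue that accompanies some cancers. In the other group HER2 itself was put back, and these tumours are labelled as free of cachexia, as are those of the other 11 introduced genes. The introduced gene and the cachexia label therefore cannot be told apart in any value given here. Each group holds 2 arrays with each of the labels T1, T2 and T3, which the labels do not define. The labels call the arrays biological replicates without naming animals or tumour lines, so p-values measure the spread between arrays. The tissue is given only as tumour, and the promoters, vectors and number of lines are not stated in the sources used here.

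MAP3K11 is a mixed-lineage kinase at the top of a MAP kinase cascade: it phosphorylates the kinases that activate JNK, and JNK in turn acts on the AP-1 family of transcription factors. HER2, encoded by Erbb2, is a receptor tyrosine kinase of the epidermal growth factor receptor family that feeds the RAS-ERK and PI3K-AKT pathways. Setting the groups side by side asks how a tumour kept growing by a cytoplasmic stress-pathway kinase differs in its RNA from one that has its receptor driver back.

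Expression is given as log2 values, as deposited, with 1 probe set for each gene; a difference of 1 is a 2-fold change. Medians of the 12 arrays lay between 5.45 and 5.53, and a control probe set level of 2.95 marks where signal is hard to tell from background. Of 13868 genes tested, 6826 (49.2%) were called at an adjusted p under 0.05 in limma, 2982 higher in MAP3K11 (21.5%) and 3844 lower (27.7%). The balance of directions depends on the scaling: 43.7% of the calls were higher with the values as deposited, 51.2% under quantile normalization (3363 higher and 3208 lower) and 49.3% with arrays centred on their median (3325 and 3425). The medians of the autosomes were used to match the 6 arrays of a group into 3 pairs. Over single genes each array also correlated best with its partner, except HER2 T3 replicate 1, at 0.44 with its partner and 0.63 with another array. With the pairs as a random block, 4621 genes (33.3%) were called, 1925 higher (13.9%) and 2696 lower (19.4%), and all of them were called with the same sign without it. Below, "called" refers to the first fit, "in both fits" to genes that also passed with the block, and each count is to be read against these shares. Over all genes tested, the MAP3K11 and HER2 arrays did not overlap in 4338 (31.3%). A test in limma of whether the difference depends on the T label called 0 genes (0%), with 189 at an unadjusted p under 0.05 (156 with all 76 arrays in the fit). The arrays of each pair carry different T labels and the pairs were not in this test, so it gives little information either way.

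Most of the large differences were departures of the MAP3K11 tumours. Among the 646 genes at least 2-fold higher in MAP3K11 in both fits, MAP3K11 had the highest mean of all 13 groups in 531 (82.2%), and HER2 the lowest in 194 (30%). Among the 354 at least 2-fold lower, MAP3K11 had the lowest mean in 299 (84.5%) and HER2 the highest in 129 (36.4%). Over all genes tested MAP3K11 was highest in 20.2% and lowest in 23.2%, and HER2 was highest in 10.5% and lowest in 8.22%. Both groups stood at opposite ends in 130 of the 646 (20.1%) and 97 of the 354 (27.4%), against 5.24% of all genes tested. These genes were selected on the difference between the groups, so the shares describe where it lies and test nothing.

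**Figure D1:**
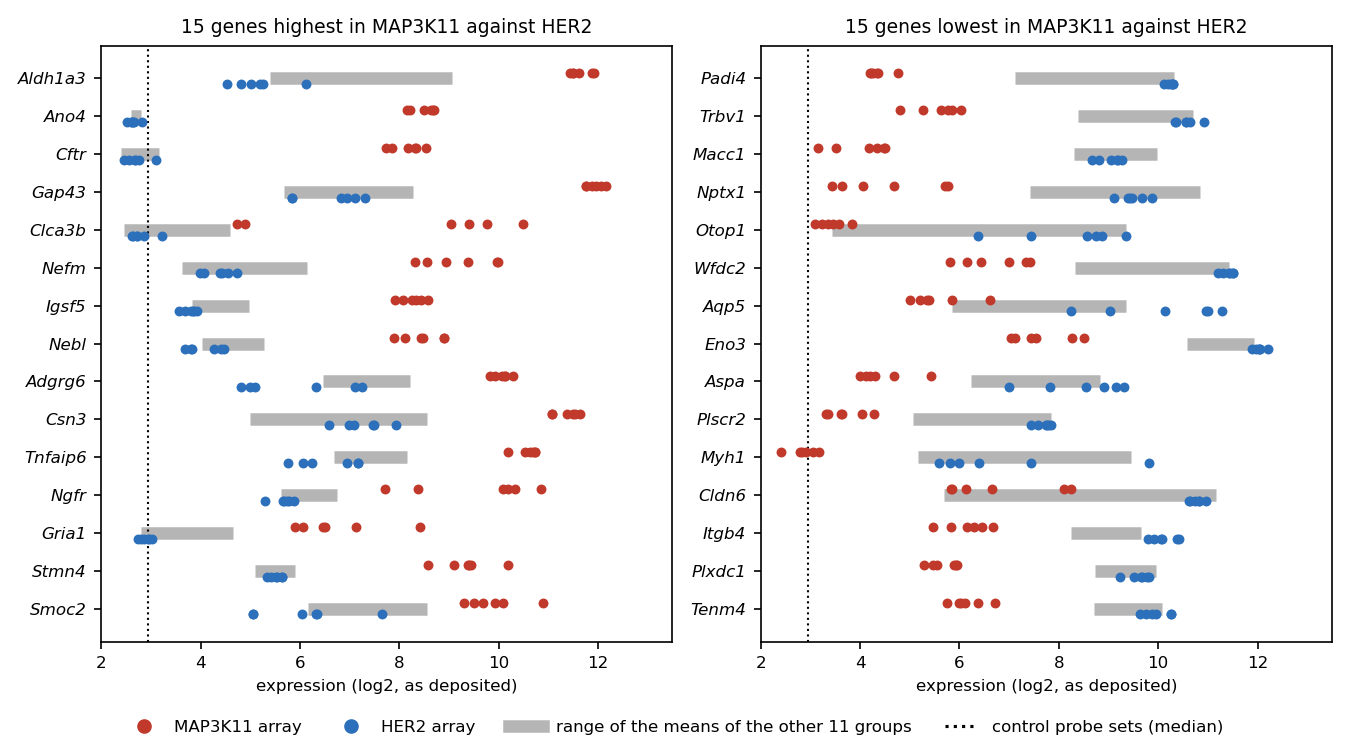
Expression (log2, as deposited) of the 15 genes highest and the 15 lowest in MAP3K11 against HER2, with 1 point for each MAP3K11 (red) and HER2 (blue) array, a grey bar for the range of the means of the other 11 groups and a dotted line at the control probe sets (2.95). The groups do not overlap in any of the 30 genes, by the rule that selected them, and for 29 of them the MAP3K11 mean lies outside the grey bar.

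The introduced genes could not be checked from their RNA. Map3k11 read 7.01, 7.25 and 7.31 (lowest, median and highest array) in MAP3K11 and 7.16, 7.22 and 7.32 in HER2. The difference was -0.01 ± 0.07 (SE, adjusted p = 0.94). Erbb2 read 6.39, 6.63 and 6.92 in MAP3K11 and 6.53, 6.84 and 7.19 in HER2, with overlapping arrays. Its difference of -0.24 ± 0.09 was called (adjusted p = 0.031) but not with the block (adjusted p = 0.17). The call was also lost without MAP3K11 T1 replicate 2, MAP3K11 T2 replicate 2, HER2 T1 replicate 2 or HER2 T3 replicate 2, with differences from -0.21 to -0.18. Each gene has 1 mouse probe set here, and whether it detects the introduced sequence is not stated.

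Several of the genes highest in MAP3K11 encode secreted or surface proteins. Igsf5, an immunoglobulin-superfamily adhesion protein of epithelial junctions, read 7.92, 8.29 and 8.58 in MAP3K11 against 3.56, 3.84 and 3.93 in HER2, a difference of 4.48 ± 0.26 (adjusted p = 5.1e-23). Adgrg6, an adhesion G protein-coupled receptor, read 9.82, 10.11 and 10.29 against 4.82, 5.71 and 7.24 (4.13 ± 0.40). Tnfaip6, a hyaluronan-binding protein induced by inflammatory cytokines, read 10.20, 10.67 and 10.74 against 5.77, 6.59 and 7.17 (4.03 ± 0.31). In these 3 genes and in Smoc2, a matricellular protein (3.82 ± 0.60), the HER2 mean was also the lowest of the 13 groups, so the difference was built from both sides.

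A second set stood near background in HER2 and was clearly present in MAP3K11. Gria1, an AMPA-type glutamate receptor subunit, read 5.89, 6.49 and 8.42 in MAP3K11 and 2.75, 2.89 and 3.03 in HER2 (3.86 ± 0.49), the latter at the control level. Nebl, an actin-binding protein of the nebulin family, read 7.90, 8.46 and 8.91 against 3.68, 4.05 and 4.47 (4.38 ± 0.39). For genes at the control level in 1 group the fitted difference is limited by background.

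Several of the genes lowest in MAP3K11 were expressed in all of the other 12 groups. Padi4, which converts protein arginine to citrulline, read 4.21, 4.29 and 4.76 in MAP3K11 and 10.12, 10.27 and 10.30 in HER2, a difference of -5.89 ± 0.51 (adjusted p = 4.3e-15). The means of the other 11 groups lay between 7.11 and 10.33. Macc1, a regulator of the gene for the MET receptor, read 3.15, 4.26 and 4.51 against 8.67, 9.11 and 9.27 (-5.001 ± 0.47), with the other groups between 8.31 and 9.97. The HER2 means lay within the range of those groups for both genes, and MAP3K11 was the lowest of 13.

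Epithelial secretory and adhesion genes were among the lowest as well. Wfdc2, a secreted protease-inhibitor-like protein of glandular epithelia, read 5.82, 6.71 and 7.42 in MAP3K11 against 11.21, 11.44 and 11.51 in HER2 (-4.71 ± 0.50). Aqp5, a water channel of secretory glands, read 4.996, 5.36 and 6.62 against 8.25, 10.55 and 11.29 (-4.55 ± 0.54), with HER2 the highest of 13 groups. Itgb4, the integrin subunit of hemidesmosomes, read 5.46, 6.23 and 6.67 against 9.79, 10.07 and 10.41 (-3.96 ± 0.20, adjusted p = 6.6e-26), and here too HER2 was highest and MAP3K11 lowest. Cldn6, a claudin of early epithelia, was the 1 gene of the 30 whose MAP3K11 mean was not at the end of the order: it ranked 11 of 13, with a difference of -3.97 ± 0.64.

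The other genes of the lowest 15 had differences between -5.01 and -3.79. They were Trbv1 (listed by the annotation as a T-cell receptor segment), Nptx1 (a neuronal pentraxin), Otop1 (a proton channel), Eno3 and Myh1 (a muscle enolase and a muscle myosin), Aspa (an aspartoacylase), Plscr2 (a scramblase-family protein), Plxdc1 and Tenm4 (single-pass or teneurin surface proteins). All 30 named genes at both ends remained called, with the same sign, under each of the 35 alternative analyses that could test them. They were selected as the largest differences called in both fits without overlapping arrays, and the block fit is among the 35. Their selection therefore largely set this outcome.

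**Figure D2:**
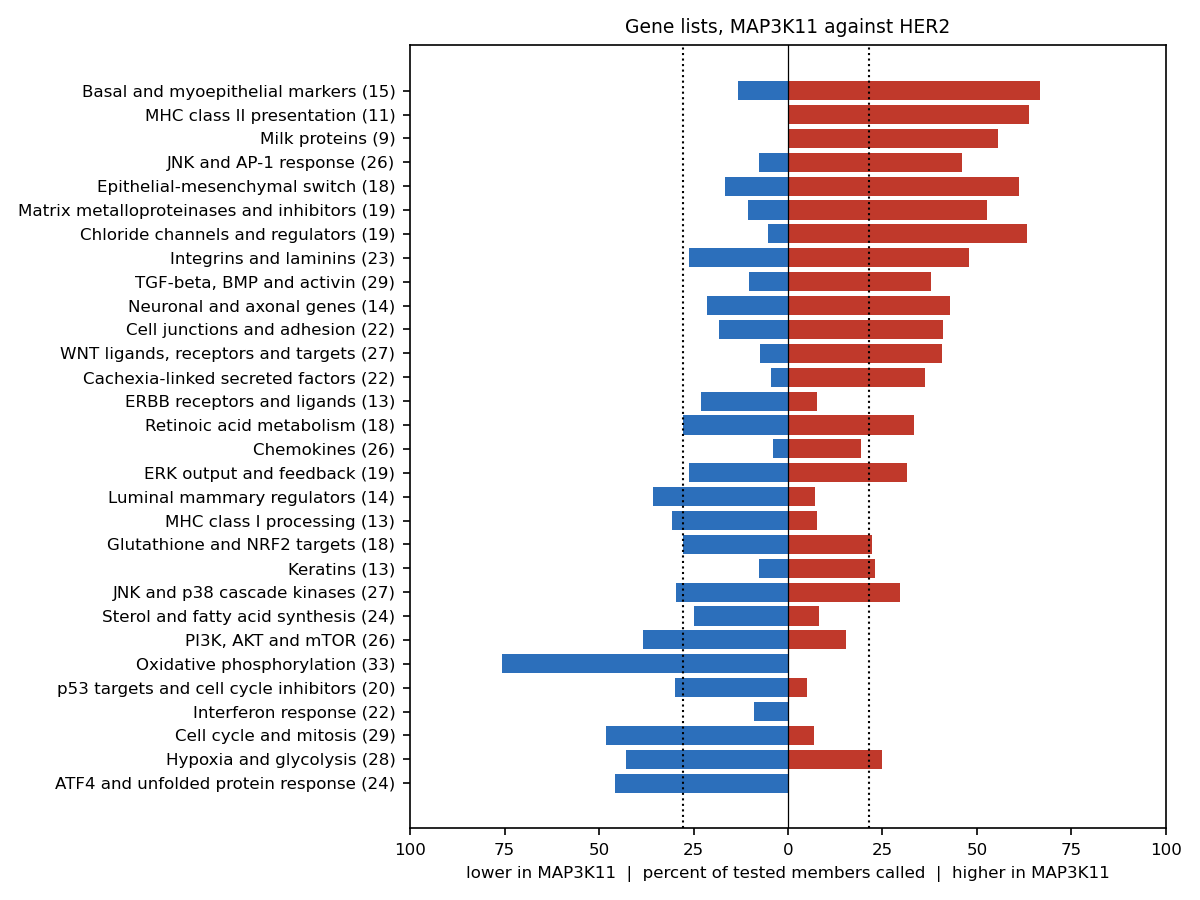
Percent of the tested members of 30 gene lists called higher (red, to the right) or lower (blue, to the left) in MAP3K11 than in HER2, with the number of tested members in brackets and lists ordered by their median difference. Dotted lines mark the shares over all genes tested, 21.5% higher and 27.7% lower; 25 of 33 oxidative phosphorylation genes were lower, and 10 of 15 basal and myoepithelial markers were higher.

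Genes of the JNK and AP-1 response leaned higher in MAP3K11, though not the AP-1 subunits that are themselves induced first. Of 26 members tested, 12 were called higher and 2 lower (10 and 2 with the block), with a median difference of 0.44 against -0.03 over all genes. Relative to all 76 arrays, the mean of the list lay between 0.20 and 0.60 in MAP3K11 and between -0.43 and 0.06 in HER2, without overlap. The other 64 arrays spanned -0.83 to 0.89, so the MAP3K11 arrays lay inside the range of the other tumours. Dusp10, a phosphatase that dephosphorylates JNK and p38, read 9.67, 9.90 and 10.06 in MAP3K11 against 6.58, 7.19 and 7.42 in HER2 (2.78 ± 0.22, adjusted p = 1.7e-16). Dusp1, another phosphatase of these kinases, read 10.74, 11.11 and 11.50 against 8.13, 8.29 and 8.86 (2.75 ± 0.30). In both genes every MAP3K11 array lay above every HER2 array.

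The transcription factor genes of the same list were mixed. Jund was higher by 0.68 and Fosl2 by 0.44, both called in both fits, while Jun (-0.14), Fos (-0.04), Fosb (-0.26), Junb (-0.31), Fosl1 (-0.42) and Atf3 (0.47) were not called. Gadd45b, a stress-induced gene that acts on the kinases upstream of p38 and JNK, was lower by 1.26 (a difference of -1.26), and Sphk1, sphingosine kinase, differed by -0.71. Among the kinases of the JNK and p38 cascades 8 of 27 were called higher and 8 lower (6 and 6 with the block). Map3k20 (ZAK), a mixed-lineage kinase of the same family as MAP3K11, was the largest: 8.07, 8.30 and 8.45 in MAP3K11 against 9.26, 9.52 and 9.68 in HER2 (-1.23 ± 0.19), the lowest of 13 groups. Map3k5 (ASK1) was also lower (-1.11 ± 0.23), and Map3k12 (DLK) higher (0.78 ± 0.15).

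Matrix metalloproteinases, many of which are textbook AP-1 targets, were higher as a group: 10 of 19 members of the list with their inhibitors were called higher and 2 lower (9 and 1 with the block), with a median of 0.40. Mmp3 (stromelysin 1) read 10.59, 11.43 and 11.85 against 8.72, 9.27 and 10.23 (1.91 ± 0.42, adjusted p = 0.00012). Mmp13 (collagenase 3) read 10.85, 11.50 and 12.13 against 9.17, 9.63 and 10.16 (1.87 ± 0.50), and Mmp9 (gelatinase B) 8.66, 10.09 and 10.85 against 6.53, 7.79 and 8.38 (2.34 ± 0.57). Their arrays did not overlap between the groups. Over the whole list, means were 0.22 to 0.56 in MAP3K11 arrays, -0.37 to -0.09 in HER2 arrays and -0.61 to 0.81 in the other 64. Other genes of the cluster on chromosome 9 that holds Mmp3 and Mmp13 did not pass the test, with differences of 0.24 for Mmp10, 0.27 for Mmp12 and 0.13 for Mmp7. Mmp16, a membrane-type enzyme, was lower (-1.25).

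The letters TGACTCA, or TGAGTCA on reading the other strand, form the AP-1 site. They were searched in the 250 bases before each transcription start in the RefSeq promoters of GRCm38.p6, where 11111 tested genes had a promoter. The motif was present for 488 of them (4.39%), for 34 of 474 genes at least 2-fold higher in both fits (7.17%) and for 23 of 274 at least 2-fold lower (8.39%). Over all genes called in both fits the shares were 5.25% of those higher and 3.59% of those lower, and the share was 4.46% over all 32851 promoters. The motif thus stood before genes that differed strongly in either direction, and a match describes letters, not binding. The windows below are shown because they hold the motif (in capitals) before genes the comparison turns on, the first 4 higher in MAP3K11 and the last 3 lower; they read 5′ to 3′ on the gene's strand and lie at chr9:7445746-7445812 (Mmp3, plus strand), chr9:7272449-7272513 (Mmp13, plus), chr7:4778203-4778269 (Il11, minus), chr2:52037941-52038007 (Tnfaip6, plus), chr4:140774221-140774287 (Padi4, minus), chr12:119443160-119443216 (Macc1, plus) and chr4:43506919-43506985 (Car9, plus).
Mmp3: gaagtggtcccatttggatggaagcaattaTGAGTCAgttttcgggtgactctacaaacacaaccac
Mmp13: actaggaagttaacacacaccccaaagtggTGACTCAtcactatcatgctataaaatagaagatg
Il11: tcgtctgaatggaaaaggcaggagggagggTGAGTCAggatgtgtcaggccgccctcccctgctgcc
Tnfaip6: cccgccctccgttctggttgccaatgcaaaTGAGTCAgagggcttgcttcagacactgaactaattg
Padi4: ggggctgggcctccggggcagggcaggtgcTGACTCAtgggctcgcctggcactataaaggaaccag
Macc1: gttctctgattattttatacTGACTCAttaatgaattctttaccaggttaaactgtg
Car9: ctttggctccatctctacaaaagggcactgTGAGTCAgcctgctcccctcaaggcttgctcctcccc
Mmp10, Mmp12 and Mmp7, which were not called, hold the motif in the same stretch as well, so its presence did not separate the members of that cluster.

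**Figure D3:**
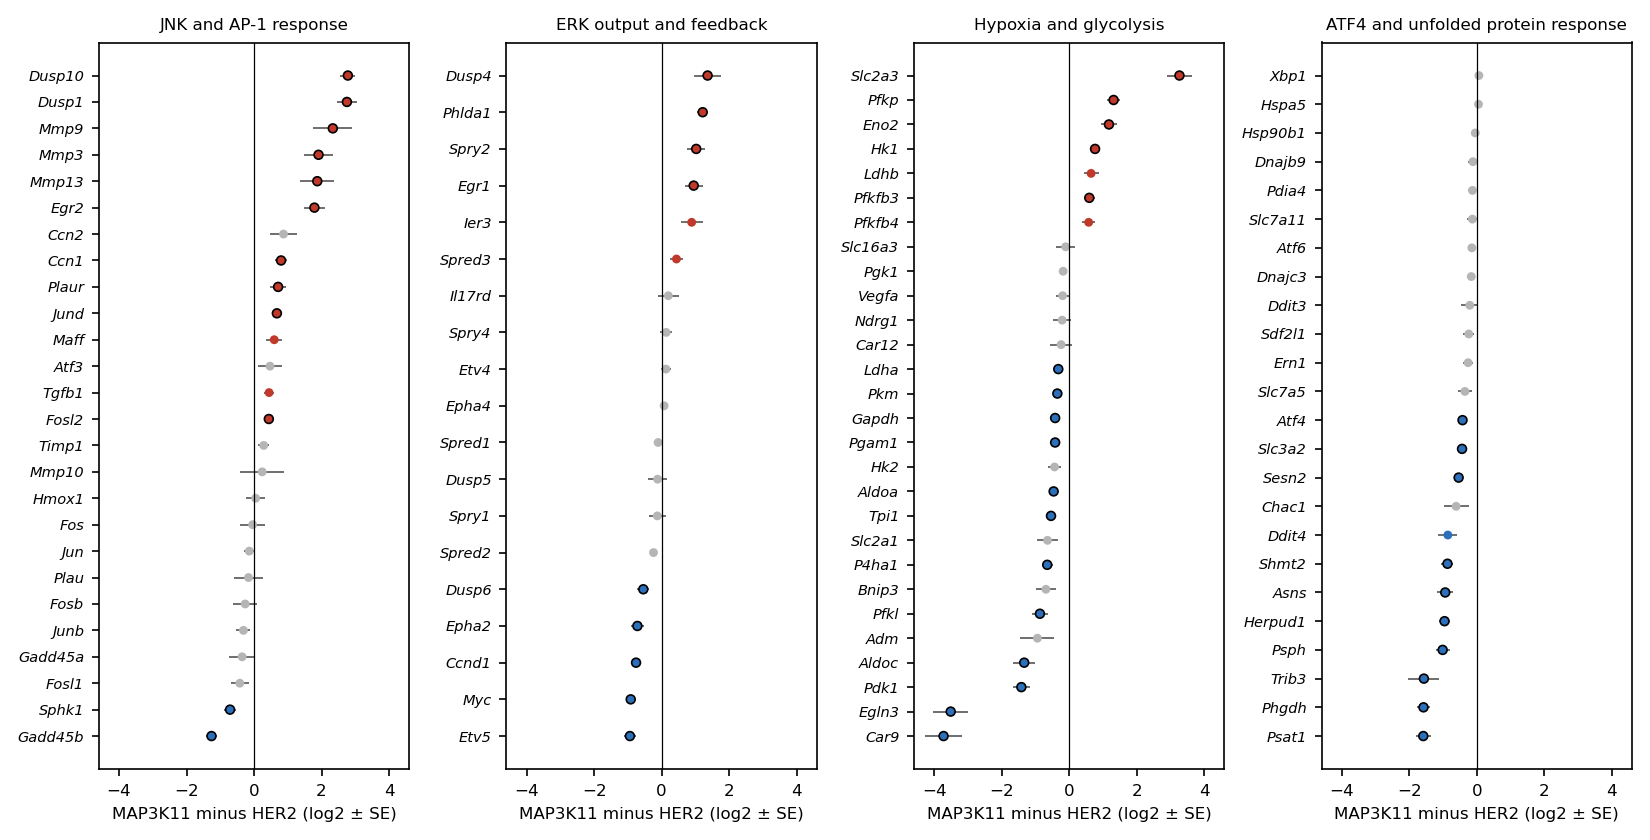
Fitted difference between MAP3K11 and HER2 (log2 ± SE) for every tested member of 4 lists, with called members in red (higher) or blue (lower), others in grey, and a black rim where the call also held with pairs of arrays as a block. Dusp10 and Dusp1 lead the JNK and AP-1 list, the ERK list splits between Dusp4 at 1.36 and Etv5 at -0.94, and no member of the ATF4 list was called higher.

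The outputs of the receptor pathway that HER2 feeds were not uniformly lower in MAP3K11. Of 19 ERK output and feedback genes, 6 were called higher and 5 lower (4 and 5 with the block). Dusp4, a nuclear ERK phosphatase, read 10.61, 10.79 and 10.999 in MAP3K11 against 9.25, 9.40 and 9.70 in HER2 (1.36 ± 0.41), and Phlda1 and Spry2, a pleckstrin-homology-domain protein and a Sprouty feedback inhibitor, were higher by 1.22 ± 0.16 and 1.03 ± 0.27. Etv5 (-0.94), Myc (-0.91), Ccnd1 (-0.76 ± 0.13), Epha2 (-0.72) and Dusp6 (-0.54), also ERK-responsive genes, were lower. With the block, 4 of the 6 higher members and all 5 lower members were still called.

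Among 13 receptors and ligands of the ERBB family 1 was called higher and 3 lower, of which 1 and 1 passed with the block, and with the stromal marker covariate described below 4 were higher and 1 lower. Egfr, the partner receptor of HER2, read 8.02, 8.15 and 8.38 against 5.98, 7.12 and 7.30 (1.22 ± 0.26), and HER2 T1 replicate 2 stood apart as the lowest of all 12. Tgfa, an EGFR ligand, read 4.39, 5.32 and 7.23 against 6.67, 7.51 and 8.19 (-1.85 ± 0.51), with overlapping arrays. Of 26 PI3K, AKT and mTOR genes 4 were higher and 10 lower (3 and 4 with the block, 6 and 7 under quantile normalization), led by Gab2, a docking protein (1.31 ± 0.11), and Foxo3, a transcription factor restrained by AKT (-0.66 ± 0.12).

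Both groups carried simple-epithelial keratins at high levels and differed in lineage genes. Krt8 had medians of 13.24 in MAP3K11 and 12.95 in HER2, and Krt18 of 12.47 and 12.94. Neither was called, with differences of 0.24 ± 0.19 and -0.41 ± 0.58. Of 12 epithelial markers 3 were called higher (Epcam, Cldn4 and Krt19) and 0 with the block. Epcam (0.30 ± 0.11) lost its call without MAP3K11 T3 replicate 1, HER2 T1 replicate 2 or HER2 T3 replicate 2, at 0.24 to 0.27. Cldn4 (0.46 ± 0.17) lost it without MAP3K11 T2 replicate 2 (0.29), and Krt19 (1.60 ± 0.56) without MAP3K11 T2 replicate 1 (1.31) or HER2 T2 replicate 2 (1.20). Because doxycycline-inducible HER2 models are commonly mammary, mammary lists were included. Of 14 luminal regulators 1 was called higher and 5 lower (0 and 3 with the block), while their median difference was 0.04, with 8 of 14 above 0.

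Gata3, the transcription factor that maintains luminal fate, read 5.19, 5.71 and 6.09 in MAP3K11 against 7.61, 7.84 and 8.09 in HER2 (-2.16 ± 0.18, adjusted p = 2.0e-15). Tbx3, a luminal T-box factor, differed by -1.43 ± 0.16, and Stat5b, which conveys prolactin signals, by -0.87 ± 0.10. All 3 had their lowest mean of 13 groups in MAP3K11, and the HER2 means ranked 5 to 7, so HER2 lay among the other groups.

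Among milk protein genes 5 of 9 were higher and 0 lower in both fits (median 0.53). Csn3, kappa-casein, read 11.08, 11.44 and 11.64 against 6.59, 7.28 and 7.93 (4.11 ± 0.70), and Btn1a1, butyrophilin of the milk fat globule, 7.84, 8.03 and 8.92 against 4.43, 5.13 and 6.17 (3.09 ± 0.33). Plin2, a lipid droplet protein (0.60 ± 0.17), and Muc1, an apical mucin (0.53 ± 0.10), were also higher. The list means of the MAP3K11 arrays, 0.96 to 1.17, exceeded those of every other array, with HER2 between -0.09 and 0.13 and the other 64 between -0.57 and 0.35.

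Basal and myoepithelial markers were largely higher: 10 of 15 were called higher and 2 lower (7 and 1 with the block), with a median of 0.87. Ngfr, a neurotrophin receptor of basal cells, read 7.72, 10.14 and 10.85 against 5.29, 5.71 and 5.87 (3.92 ± 0.41), and Id4, an inhibitor of differentiation in basal cells, 7.05, 7.76 and 8.29 against 5.29, 5.50 and 5.68 (2.28 ± 0.26). The basal keratin Krt14 did not follow them, at 4.59, 4.86 and 5.20 against 4.81, 6.95 and 8.69. Its difference of -1.90 ± 0.53 was called, but not with the block (adjusted p = 0.070). The contractile members Acta2 and Tagln (1.72 ± 0.38 and 1.83 ± 0.40) are shared with pericytes and fibroblasts. Means of the basal list were 0.41 to 0.90 in MAP3K11 arrays, -0.33 to 0.02 in HER2 arrays and -0.54 to 0.80 in the other 64.

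Regulators of the epithelial-mesenchymal switch were higher in 11 of 18 and lower in 3 (8 and 2 with the block, median 0.40). Twist2 read 9.58, 9.80 and 10.98 against 5.95, 6.68 and 7.63 (3.42 ± 0.35), Snai2 9.78, 10.61 and 10.97 against 7.81, 8.32 and 8.53 (2.26 ± 0.27), and Prrx1 differed by 1.84 ± 0.43; all encode transcription factors that mesenchymal cells also express. S100a4, a calcium-binding protein often called fibroblast-specific protein, went the other way: 10.37, 10.68 and 12.13 against 13.17, 13.34 and 13.42 (-2.27 ± 0.19). It was lowest of 13 groups in MAP3K11 and highest in HER2.

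Stromal cell markers moved in the same direction as these lists. Fibroblast markers were higher in 13 of 17 and lower in 1 (12 and 1 with the block), endothelial markers higher in 15 of 18 and pericyte markers higher in 7 of 8, with 0 lower in either. Marker means were 0.21 to 0.62 in MAP3K11 arrays and -1.21 to -0.33 in HER2 arrays for fibroblasts, 0.22 to 0.52 and -0.60 to -0.20 for endothelium, and 0.73 to 0.94 and -0.92 to -0.09 for pericytes. In bulk tumours more cells of a type and more RNA for each cell cannot be told apart. Among single markers, Pdgfrb, a receptor of fibroblasts and pericytes, read 11.10, 11.41 and 11.89 against 8.54, 9.03 and 9.59 (2.41 ± 0.32), Notch3 of pericytes differed by 2.13 ± 0.24 and Kdr, the endothelial VEGF receptor, by 1.17 ± 0.22. HER2 had the lowest mean of 13 groups for Pdgfrb, Fap and Kdr. Dcn, the matrix proteoglycan decorin, was the exception among fibroblast genes (-1.25).

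**Figure D4:**
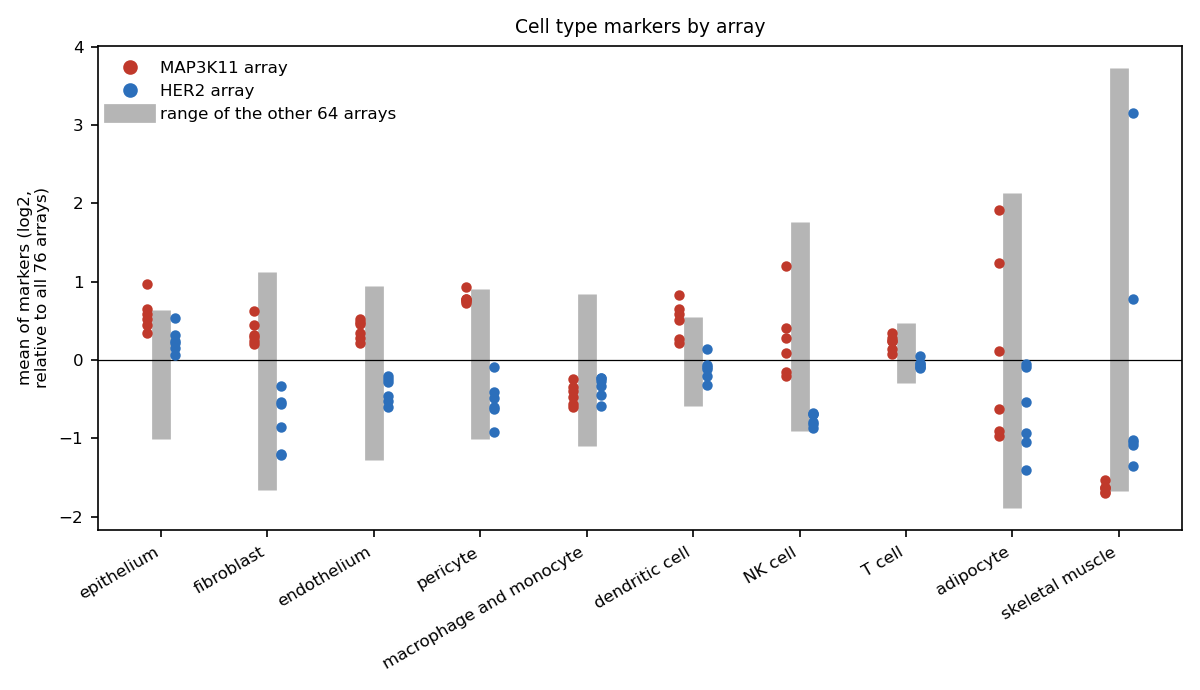
Mean of cell type markers in each array (log2, relative to the mean of all 76 arrays) for 10 cell types, with MAP3K11 arrays in red, HER2 arrays in blue and the range of the other 64 arrays as a grey bar. Fibroblast, endothelial and pericyte means separate the groups, macrophage means do not, and 2 HER2 arrays stand out for skeletal muscle at 0.78 and 3.15.

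With the mean of fibroblast, endothelial and pericyte markers as a covariate, chosen after the data were seen, 4672 genes were called, 4069 of them also called without it and with the same sign. This covariate differs between the groups, so it takes up part of their difference. Of the switch regulators 4 were then higher and 4 lower, of the basal markers 3 and 2, and of the metalloproteinases 5 and 1. Twist2 (2.70), Snai2 (1.41), Mmp3 (1.80), Mmp9 (2.48), Dusp1 (2.19) and Dusp10 (3.10) were still called, whereas Prrx1 (1.10, adjusted p = 0.077), Mmp13 (1.34, adjusted p = 0.076), Tagln (0.40) and Acta2 (0.32) were not. Acta2 is a pericyte marker and so forms part of the covariate, which bears on its lost call and on the count of basal markers. Milk proteins (5 of 9 higher) and chloride channels (10 of 19) were called as often or nearly as often as before.

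Of the chloride channels and regulators 12 of 19 were higher and 1 lower (10 and 1 with the block, median 0.29). Ano4, Cftr and Clca3b, the members with the largest differences, are in the plot of the 30 most different genes. Clca3a2, a secreted channel regulator related in sequence to Clca3b, read 3.28, 5.50 and 5.97 in MAP3K11 against 2.31, 2.57 and 2.94 in HER2 (2.30 ± 0.54). Clcn3, an endosomal exchanger, was the single member lower (-0.58). Clca3b itself was uneven among MAP3K11 arrays, between 4.72 and 10.49. The list mean was 0.71 in T1 replicate 2 and 0.75 in T2 replicate 2 of MAP3K11, which form a pair, and 1.35 to 1.40 in the other 4 arrays of the group. The same pair had the highest adipocyte marker means, 1.24 and 1.92, against -0.96 to 0.12 in the other 4 and -1.40 to -0.05 in HER2; the part of fat tissue in these values was not tested.

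Genes of neurons and axons split. Of 14 tested 6 were higher and 3 lower (5 and 2 with the block). The neurofilament genes Nefm (4.83 ± 0.52) and Nefl (9.02, 10.04 and 10.82 against 5.18, 6.33 and 8.28, 3.46 ± 0.80), the tubulin regulator Stmn4 (3.84 ± 0.20) and the ubiquitin hydrolase Uchl1 (3.21) were higher, and the neuronal tubulin Tubb3 (-2.63) and Nptx1 (-4.94 ± 0.72) lower. Of 9 Schwann cell and nerve markers 3 were higher, Nefl and Nefm among them. The Schwann cell factor Sox10 read 5.91, 6.16 and 6.20 against 5.85, 5.94 and 6.04, and its difference of 0.17 ± 0.07 was not called with the block (adjusted p = 0.20) or without any one of 5 arrays: T1 replicate 1, T2 replicate 1 or T3 replicate 2 of MAP3K11, where it was 0.16, and T1 replicate 1 or T2 replicate 2 of HER2, with 0.16 and 0.17.

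In retinoic acid metabolism 6 of 18 genes were higher and 5 lower, all but 1 in both fits. Aldh1a3, an enzyme that synthesises retinoic acid, read 11.44, 11.56 and 11.92 against 4.54, 5.11 and 6.13 (6.49 ± 0.79, adjusted p = 5.6e-10), highest of 13 groups in MAP3K11 and lowest in HER2. The receptor gene Rarb, itself a retinoic acid target, read 5.36, 5.89 and 6.24 against 4.02, 4.10 and 4.24 (1.74 ± 0.20), and Lrat, which stores retinol as esters, 4.96, 5.87 and 6.88 against 3.26, 3.39 and 3.999 (2.34 ± 0.35). The binding protein Crabp2 went the other way, at 5.14, 5.58 and 5.89 against 6.09, 9.10 and 10.90 (-3.16 ± 0.64), with Rdh10, a retinol dehydrogenase (-1.62), and the receptor gene Rara (-1.06). The list mean was 0.39 and 0.45 in the pair of MAP3K11 arrays with high adipocyte markers and 0.10 to 0.21 in the other 4.

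Secreted factors that have been linked to cachexia were examined because the groups differ in that label. Of 22 tested, 8 were higher and 1 lower (5 and 1 with the block). Their median difference was 0.11, and 0.17 to 0.35 without any one of HER2 T3 replicate 1 and the MAP3K11 arrays T1 replicate 1, T1 replicate 2, T2 replicate 1, T3 replicate 1 and T3 replicate 2. Il11, an interleukin-6-family cytokine, read 9.37, 9.66 and 10.45 in MAP3K11 against 6.47, 6.90 and 7.13 in HER2 (2.90 ± 0.61, adjusted p = 7.3e-05). Inhba, the activin A subunit, read 12.12, 12.30 and 12.59 against 9.84, 10.45 and 10.62 (1.96 ± 0.29). Both were highest of 13 groups in MAP3K11.

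Il1b, interleukin-1 beta, read 9.81, 10.30 and 10.57 against 8.27, 8.32 and 9.57 (1.53 ± 0.35), but here HER2 was the lowest group and MAP3K11 ranked 2 of 13. Inhbb, the subunit of activin B, was lower (8.21, 8.59 and 8.91 against 9.82, 9.92 and 10.02, -1.35 ± 0.33). Il6 differed by 1.11, a call not held with the block (adjusted p = 0.095), and Tnf (0.19) and Lif (0.03) were not called. The members that passed in both fits were therefore Il11, Inhba, Il1b, Clcf1 (0.88) and Fstl3 (0.58), and Inhbb in the other direction.

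Of the wider TGF-beta, BMP and activin family 11 of 29 were higher and 3 lower (6 and 3 with the block, median 0.28). Bmp2 read 9.54, 10.80 and 10.93 against 5.82, 7.38 and 8.57 (3.15 ± 0.71), while Bmp4 read 4.73, 5.45 and 5.66 against 6.20, 6.53 and 7.40 (-1.39 ± 0.46). Of 27 WNT ligands, receptors and targets 11 were higher and 2 lower (8 and 1 with the block, median 0.19), among them Wnt11 (1.88 ± 0.16) and the secreted antagonists Sfrp2 (1.88 ± 0.51), Dkk3 (1.76 ± 0.37) and Dkk2 (1.58 ± 0.42). With the stromal covariate Sfrp2 was 0.06 and Dkk3 0.64, neither called.

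Integrins and laminins also split by member, with 11 of 23 higher and 6 lower (9 and 6 with the block, 5 and 6 with the stromal covariate). The subunits of the hemidesmosome and its laminin were lower: Itgb4 as above, its partner Itga6 (-1.34), Lamb3 (4.25, 7.53 and 8.57 against 8.86, 8.996 and 9.62, -2.22 ± 0.62) and Lama5 (-1.89). Collagen and fibronectin receptors that mesenchymal cells carry were higher, Itga1 at 8.17, 8.37 and 8.59 against 6.10, 6.32 and 6.57 (2.08 ± 0.20) and Itga8 by 2.38 ± 0.58. At cell junctions, where 9 of 22 were higher and 4 lower (3 and 3 with the block), the desmosomal cadherin Dsc2 (1.94 ± 0.18) and the mesenchymal cadherin Cdh11 (1.87 ± 0.31) were higher in both fits.

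Several lists of metabolic genes leaned lower in MAP3K11. Oxidative phosphorylation had 25 of 33 members lower and 0 higher (18 and 0 with the block), with small sizes and a median of -0.20. Under quantile normalization 16 were lower and under median centring 20, with 0 higher in both. Ndufv2, a complex I subunit, read 11.19, 11.26 and 11.35 against 11.77, 11.80 and 11.88 (-0.56 ± 0.05), and Ndufa4 differed by -0.62 ± 0.12 and Cox7c by -0.52 ± 0.11. The list mean was -0.28 to -0.10 in the MAP3K11 arrays, 0.02 to 0.07 in the HER2 arrays and -0.17 to 0.18 in the other 64.

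Among genes of ATF4 and the unfolded protein response 11 of 24 were lower and 0 higher (10 and 0 with the block, median -0.39). The lower members included all 3 enzymes of serine synthesis: Phgdh at 9.17, 9.30 and 9.56 against 10.79, 10.89 and 10.99 (-1.58 ± 0.19), Psat1 at 8.66, 9.69 and 10.07 against 11.04, 11.16 and 11.27 (-1.58 ± 0.22) and Psph (-1.01 ± 0.20). Asparagine synthetase and the pseudokinase gene Trib3 (-1.57 ± 0.46) were also lower. The chaperone genes of the list, Hspa5 and Hsp90b1, were not called. HER2 had the highest mean of 13 groups for Psat1, Psph and Trib3.

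Hypoxia and glycolysis genes were lower in 12 of 28 and higher in 7 (12 and 5 with the block, median -0.38). Car9, carbonic anhydrase 9, read 5.42, 5.84 and 6.19 against 8.48, 9.83 and 10.59 (-3.72 ± 0.55), and the prolyl hydroxylase gene Egln3 5.28, 6.39 and 7.39 against 8.89, 9.72 and 10.82 (-3.51 ± 0.52). Pdk1, a kinase that restrains pyruvate dehydrogenase, read 7.06, 7.60 and 7.92 against 8.57, 9.01 and 9.33 (-1.42 ± 0.26). The glucose transporter gene Slc2a3 was the reverse, at 9.40, 9.94 and 11.31 against 6.16, 6.97 and 7.48 (3.27 ± 0.38). With the stromal covariate 4 of 28 were higher and 4 lower, and Car9 (-2.55) and Egln3 (-2.32) were still called.

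Cell cycle genes were lower in 14 of 29 and higher in 2 (9 and 1 with the block, median -0.32), and with the stromal covariate lower in 5 and higher in 2. Ccnd1, cyclin D1, read 11.33, 11.57 and 11.84 against 12.22, 12.32 and 12.54 (-0.76 ± 0.13), whereas Ccne1, cyclin E1, was higher (0.73 ± 0.11). Mki67, the proliferation marker, was not called (-0.21 ± 0.13). The cell cycle inhibitor Cdkn1b was lower too (-0.96 ± 0.13). Of 20 p53 targets and inhibitors 6 were lower and 1 higher in both fits.

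Sterol and fatty acid synthesis had 2 of 24 higher and 6 lower (2 and 3 with the block), and with the stromal covariate 5 higher and 0 lower, where the median changed from -0.09 to 0.16. In the fit without the covariate Hsd17b7 (1.07 ± 0.15) and Dhcr7 (0.95 ± 0.16) were higher and Sc5d lower (-0.56 ± 0.12), all enzymes of cholesterol synthesis. Of 18 glutathione and NRF2 targets 4 were higher and 5 lower (4 and 3 with the block). Gstm2, a glutathione transferase, was higher by 1.87 ± 0.28, Gpx3, a secreted peroxidase, by 1.79 ± 0.27 and Srxn1, sulfiredoxin, by 1.41 ± 0.14, against Gsto1 at -0.80 ± 0.10.

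Immune genes differed by class. MHC class II presentation had 7 of 11 higher and 0 lower (4 and 0 with the block, median 0.80). The list mean was 0.38 to 0.99 in MAP3K11. HER2 T1 replicate 1 and T2 replicate 2, a pair, lay inside that range at 0.80 and 0.62, and the other 4 HER2 arrays were at -0.64 to -0.08; without that pair the median difference was 1.14. H2-Ab1 read 11.26, 11.55 and 11.94 against 8.80, 9.64 and 11.40, with the highest HER2 array inside the MAP3K11 range (1.67 ± 0.41), and the class II transactivator gene Ciita 5.50, 5.82 and 5.95 against 4.33, 4.82 and 5.50 (0.87 ± 0.18). Dendritic cell markers were higher in 4 of 7 (3 with the block), with means of 0.21 to 0.84 in MAP3K11 and -0.31 to 0.14 in HER2. Macrophage markers were not: 0 of 19 were higher and 1 was lower, and their means overlapped (-0.60 to -0.24 and -0.58 to -0.23). With the stromal covariate 1 class II gene was higher and 1 lower.

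The chemokine genes Ccl17 (8.19, 9.14 and 10.08 against 6.24, 6.48 and 7.45, 2.47 ± 0.29) and Ccl22 (1.05 ± 0.16), ligands of the same receptor on T cells, were highest of 13 groups in MAP3K11, and Cx3cl1, fractalkine, lowest (-1.83 ± 0.28). In the chemokine list as a whole 5 of 26 were higher and 1 lower in both fits. NK cell markers were higher in 4 of 8 (2 with the block), and HER2 had the lowest mean of 13 groups for Gzmb (2.38 ± 0.54), Eomes (0.83 ± 0.16) and Klrk1 (0.75 ± 0.30, not called with the block, adjusted p = 0.11). Without MAP3K11 T1 replicate 2, MAP3K11 T2 replicate 2, HER2 T1 replicate 2 or HER2 T2 replicate 1 the Klrk1 call was lost, at 0.67 to 0.73. Of 6 T-cell markers 3 were higher and only Zap70 (0.41 ± 0.09) held with the block, but its difference was -0.39, also called, with the probe set of highest variance.

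Antigen processing for MHC class I and the interferon response did not separate the groups as lists. Of their tested members 38.5% and 9.09% were called, against 49.2% over all genes tested. Class I list means were -0.70 to -0.18 in MAP3K11 and -0.61 to -0.20 in HER2. Interferon list means were -1.01 to -0.48 and -1.25 to -0.08. Of 13 class I processing genes 1 was higher and 4 lower (0 and 3 with the block): Erap1, the peptide-trimming aminopeptidase, read 6.24, 6.31 and 6.53 against 7.63, 7.89 and 8.22 (-1.56 ± 0.18), and Tapbp, tapasin, differed by -0.91 ± 0.23. The class I genes H2-K1 (-0.05) and H2-D1 (0.04) were not called. Of 22 interferon-induced genes 0 were higher and 2 lower, Gbp2 (-1.62 ± 0.36) and Bst2 (-1.30 ± 0.31), in both fits. With the stromal covariate 11 interferon genes were lower and 0 higher.

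Skeletal muscle markers need their arrays stated. Their mean was 3.15 in HER2 T2 replicate 1 and 0.78 in HER2 T2 replicate 2, -1.35 to -1.01 in the other 4 HER2 arrays and -1.70 to -1.53 in MAP3K11. Of 23 tested, 4 were called lower in MAP3K11 and 2 with the block, and the median difference of -1.43 was -0.71 without HER2 T2 replicate 1 and -0.16 without both T2 arrays. Myh1, at 2.40, 2.86 and 3.17 against 5.59, 6.19 and 9.82, differed by -3.98 ± 0.75 and by -3.14 without both T2 arrays, still called. Eno3 did not follow the muscle mean: it read 7.05, 7.48 and 8.50 against 11.89, 12.03 and 12.22 (-4.39 ± 0.25), was at least 10.59 in every other group, and differed by -4.44 without those arrays.

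By chromosome, small shifts separated the groups. The median of all genes on a chromosome, relative to the array, was compared by a two-sided exact permutation test over 6 against 6 arrays, with 7 of 20 chromosomes called after adjustment. The arrays did not overlap for chromosomes 12 (-0.06), 13 (-0.07), 14 (0.06) and X (-0.11), each at the smallest p these arrays allow (exact permutation p = 0.0022). On chromosome 14 the ranges nearly met, with the lowest MAP3K11 array at 0.0090 and the highest HER2 array at 0.0081. On X, HER2 T1 replicate 1 and T2 replicate 2, a pair, were at 0.20 and 0.21, the other 4 HER2 arrays at -0.031 to -0.003 and the MAP3K11 arrays at -0.074 to -0.036. Without that pair, an alternative added after the data were seen, the X difference was -0.034 (exact permutation test, adjusted p = 0.048) and 6 chromosomes were called. With genes of low values kept in, it was -0.043 and not called (exact permutation test, adjusted p = 0.074). The test treats the arrays as independent, but partners correlated at 0.47 to 0.95 in the autosome medians, on which they were matched. Its p-values and the 7 calls can therefore overstate the evidence. Taking the 3 pairs of each group as units the smallest p possible is 0.10, so none could be called.

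**Figure D5:**
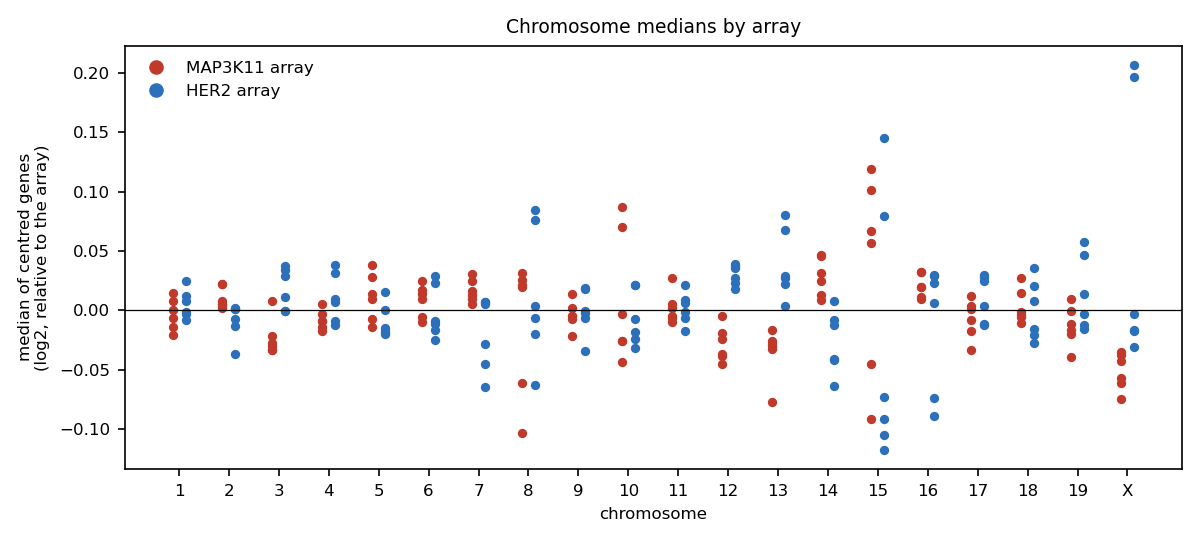
Median of the centred genes on each chromosome in each array (log2, relative to the array) for the 6 MAP3K11 (red) and 6 HER2 (blue) arrays. Most medians lie within 0.10 of 0, the groups separate on chromosomes 12, 13, 14 and X, and 2 HER2 arrays stand above the other 10 on X.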

How the data were processed

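The series holds 76 Affymetrix mouse arrays of 45101 probe sets with tumour RNA. The deposited values are log2 expression values; per the submitters' processing notes the authors used affy, and the normalization method and version are not given in the sources used here. They were used as deposited. Probe sets naming 1 gene (34958; 932 name several and 9211 none) were matched to RefSeq genes of GRCm38.p6 (34754 matched, 0 symbols changed). The probe set of highest mean stood for each of 18194 genes, and 13868 were tested, those above the 40th percentile of their array in at least 4 arrays. The other gene that the title names is not reported here.

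All arrays were fitted in limma 3.58.1 (R 4.3.3, statmod 1.5.0, data.table version 1.17.8) with introduced gene and T label (61 residual degrees of freedom), two-sided, Benjamini-Hochberg adjusted over all genes tested. Pairs of arrays were matched within groups on autosome medians; their correlation, as a random block, was 0.628. Replicate numbers in the labels did not pair the arrays. Named genes are the 15 highest and 15 lowest called in both fits without overlapping arrays, up to 4 called members of each list with the largest difference, and the introduced genes. Other members are named from the lists, after their values were seen. The members and lists were chosen with earlier results of these data known. List means are averages of members centred over all 76 arrays. The fit was also run on simulated data in which the arrays were independent. As the real arrays resemble each other in pairs, that run does not show the error rate of the fit here. The number of arrays limits precision.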

Additional observations from a re-analysis of the deposited data

Results flagged for a closer look

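Among 168 named genes, 12 of 336 groups of 6 arrays (3.57%) held an array far from the other 5 by Dixon's test, where chance alone flags about 5%. In MAP3K11, Padi4 read 4.757 in T3 replicate 1, above the others at up to 4.36, and Zmat3 read 8.63 there, below the others. Msmo1 read 8.725 in T3 replicate 2, Btg2 8.181 in T2 replicate 1, and Sox10 5.906 and Map3k11 7.01 in T1 replicate 2, each below the other 5. In HER2, Egfr read 5.976 in T1 replicate 2, with the others between 7.009 and 7.30, and Krt19 4.966 in T2 replicate 2, with the others at 6.891 or more. Ccne2 read 8.089 in T1 replicate 1, Psph 9.81 in T2 replicate 1, Phlda1 10.21 in T2 replicate 2 and Lrat 3.999 in T3 replicate 2, each above the other 5.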

How the results depend on the processing

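Over 35 alternatives the number of genes called ranged from 4392 to 7743, against 6826. With pairs of arrays as a random block 1925 genes were higher, and on means of pairs, 3 against 3, 4392 were called, 1913 higher and 2479 lower. Leaving out 1 array at a time gave 6335 to 6691 called, and leaving out 1 pair 5988 to 6444. The replicate number of the labels as a block, with 12 arrays, gave 6931; the number does not pair the arrays (correlation -0.20 to 0.16, own number best for 1 of 6). Chromosome medians were called for 4 chromosomes without the filter and for 0 on means of pairs, where fewer units set the limit. Of 168 named genes 28 lost their call with the pair block and 42 with the stromal covariate. Signs reversed for Zap70 with the probe set of highest variance (-0.39), and with the stromal covariate for Calr (-0.017), Tek (-0.16) and Cdh5 (-0.10). Tek and Cdh5 are endothelial markers that form part of this covariate, so they were adjusted for a mean that contains them. Other named genes are members of the covariate too, which bears on the 42 lost calls. The cause of the reversals of Zap70 and Calr was not tested. Signal near the control level limits genes such as Gria1 and Myh1.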

Other observations

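Differences were also followed along the chromosomes in windows of 15 neighbouring tested genes, and these genes were chosen after their values were seen. Over 13510 overlapping windows the median difference lay between -0.39 and 0.33 for all but the outermost 1% on each side. The highest window (2.05), on chromosome 14, holds the granzyme and mast cell protease cluster, with 9 of 15 genes called higher and 1 lower. Gzme read 8.78, 9.56 and 10.69 in MAP3K11 against 5.62, 6.26 and 7.35 in HER2 (3.37 ± 0.61), and Gzmd (3.22 ± 0.84), Gzmc (2.73 ± 0.65) and Mcpt1 (2.57 ± 0.62) were also called in both fits. These genes are close copies of each other, so probe sets may share signal.

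The lowest window (-0.63) is on chromosome 2, from Tlk1 to Ola1 (GRCm38.p6, chr2:70712407-73214447), with 14 of 15 genes lower and 0 higher. It holds Itga6, Pdk1 and Map3k20, given in the report, and genes of unrelated function such as Dlx1, a homeobox factor (3.51, 3.67 and 3.89 against 4.78, 5.69 and 5.81, -1.74 ± 0.25), Mettl8, a methyltransferase (-0.88 ± 0.10), and Cdca7 (-0.95 ± 0.14).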
